A study of Mus musculus with 12 samples.

Results

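The aryl hydrocarbon receptor (AHR) pathway was followed in mouse bone marrow-derived dendritic cells (BMDCs) through 6 genes, namely the receptor gene Ahr, its partner Arnt, the repressor Ahrr, the feedback enzyme Tiparp and the target enzymes Cyp1a1 and Cyp1b1. They were chosen by symbol from the 55335 genes listed for each library. Cyp1b1 drew attention to the pathway because its interaction, the log2 change with lipopolysaccharide (LPS) in the presence of JSH-23 minus the change in its absence, was among the highest of all genes in these same libraries. Its values in the 4 groups, and the interaction of each of the 6 genes, are therefore given as a description with no test. Of the 6 genes, 5 passed the low-count filter and 4 of these (Ahr, Arnt, Ahrr and Tiparp) were tested.

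RNA-seq had been carried out on 12 libraries, 3 in each of 4 groups. All cells came from C57BL/6 mice aged 8 to 12 weeks that carried CreER, a tamoxifen-inducible Cre expressed from the Rosa26 locus in every cell, with Ctcf intact, and were grown for 6 days with GM-CSF and enriched for CD11c+ cells. WT cells received neither agent, and WTL cells received 100 ng/ml LPS, a bacterial cell wall component, for 3 h. WT + JSH23 cells received 100 µM JSH-23, a small molecule that keeps RelA, a subunit of NF-κB, out of the nucleus, for 3 h, and WTL + JSH23 cells received JSH-23 before LPS. The sources do not say whether the groups without JSH-23 received its solvent. The study added the tamoxifen derivative that activates Cre to delete Ctcf in knockout cells but not in WT cells. Its wording leaves unclear whether WT cultures received this compound. Replicates were numbered 4 to 6 in WT and WTL and 1 to 3 in the JSH-23 groups. The study also lists replicates 1 to 3 of WT and WTL, which are not among these libraries. The numbers do not show whether groups with and without JSH-23 shared cultures. If they did not, an effect of JSH-23 cannot be told apart from a difference between cultures. The study calls the replicates biological. Whether each came from a separate mouse is not given, and if not, p values measure only the spread between these cultures.

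Library totals ran from 24664724 to 34837847 expected counts. WTL + JSH23 replicate 3 stood apart from the other replicates of its group, with a chi-square per degree of freedom of 8.19 and 9.12 against them, while other pairs of replicates had between 2.32 and 4.5. The 10 dendritic cell markers passed the low-count filter, and Itgax, which encodes CD11c, was at 598.3 to 655.7 CPM on average in the 4 groups. CPM here denotes expected counts relative to the library total, after TMM scaling between libraries. TPM, which also divides by transcript length and has no scaling between libraries, was used where the levels of different genes were set side by side. In bulk RNA, fewer cells that express a gene and less of its RNA per cell cannot be told apart.

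AHR is a transcription factor of the bHLH-PAS family that waits in the cytoplasm in a complex with the chaperone HSP90 until it binds a ligand, such as a planar aromatic compound or a metabolite of tryptophan. It then enters the nucleus, pairs with ARNT and binds DNA at xenobiotic response elements, whose core reads GCGTG. Its classical targets are the cytochrome P450 genes Cyp1a1 and Cyp1b1, whose products oxidise many of the ligands, and the feedback genes Ahrr and Tiparp. The AHRR protein competes with AHR for ARNT and for the same DNA sites, and TIPARP attaches ADP-ribose to AHR and dampens it. In dendritic cells the pathway is known for its influence on cytokine production and on enzymes that break down tryptophan.

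The sequences just upstream of Ahrr, Tiparp and Cyp1b1 are shown because these genes are described as direct AHR targets and were measured above the low-count filter. They are RefSeq sequences of build GRCm38.p6, read 5′ to 3′ on the strand of the gene, and end at the base before its start in GENCODE. Capitals mark the core GCGTG, which reads CACGC where it lies on the opposite strand. The Ahrr window (chr13:74292332-74292581, minus strand) and the Cyp1b1 window (chr17:79715062-79715311, minus strand) hold 250 bases each. The Tiparp window (chr3:65528197-65528409, plus strand) holds 213 bases, as GENCODE starts the gene earlier than RefSeq does.

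Ahrr: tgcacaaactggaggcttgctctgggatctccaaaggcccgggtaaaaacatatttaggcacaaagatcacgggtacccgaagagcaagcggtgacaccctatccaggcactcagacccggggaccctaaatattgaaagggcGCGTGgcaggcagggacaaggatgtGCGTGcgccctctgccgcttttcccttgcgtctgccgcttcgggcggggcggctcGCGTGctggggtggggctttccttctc

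Tiparp: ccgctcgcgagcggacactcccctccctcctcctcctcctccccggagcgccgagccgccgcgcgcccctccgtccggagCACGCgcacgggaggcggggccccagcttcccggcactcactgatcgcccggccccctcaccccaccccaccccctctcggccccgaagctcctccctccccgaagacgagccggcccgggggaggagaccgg

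Cyp1b1: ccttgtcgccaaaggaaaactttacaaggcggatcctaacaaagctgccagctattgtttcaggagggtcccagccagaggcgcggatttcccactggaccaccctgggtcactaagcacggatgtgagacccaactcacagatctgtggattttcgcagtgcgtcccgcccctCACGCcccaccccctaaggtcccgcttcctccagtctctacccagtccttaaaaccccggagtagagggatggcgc

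RefSeq gave windows for 5 of the 6 genes, all but Ahr. GCGTG and a longer form of it were searched on both strands in the 250 bases before each RefSeq start. Ahrr held 3 copies, at 107, 82 and 27 bases upstream of its start. Arnt, Tiparp, Cyp1a1 and Cyp1b1 held 1 copy each. All 250 bases of the Cyp1a1 window lie inside the gene as GENCODE places it. Of 32841 windows of the same length in the mouse genome, 28.2% held at least 1 copy and 2.8% held at least 3. The longer form TNGCGTG, which contains the core, was found only in the Ahrr window of these 5, at 29 bases upstream, and in 4.1% of all windows. These matches describe the letters of the windows and say nothing about binding.

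Ahr itself was higher with JSH-23. The gene (ENSMUSG00000019256.17, chromosome 12, 35497974 to 35535038, GRCm38, minus strand) was measured at 28.01, 25.12 and 27.11 CPM in the 3 WT libraries and at 31.27, 31.23 and 31.4 CPM in WTL. With JSH-23 it was at 70.06, 71.26 and 71.06 CPM without LPS and at 71.79, 71.54 and 82.79 CPM with LPS. Every library with JSH-23 lay above every library without it, and the highest value was in WTL + JSH23 replicate 3, the library that stands apart. Ahr rose 2.65-fold with JSH-23 in unstimulated cells, from 26.8 ± 1.48 to 70.8 ± 0.642 CPM (SD, n = 3), with a log2 fold change (log2FC) of 1.41 (SE 0.0557, adjusted p = 2.43e-14 with edgeR). It rose 2.41-fold under LPS, from 31.3 ± 0.0888 to 75.4 ± 6.42 CPM (log2FC 1.27, SE 0.0565, adjusted p = 1e-13), and the log2FC was 1.20 without WTL + JSH23 replicate 3. Only 184 and 351 of the 14357 genes tested, Ahr included, had a log2FC as high in these comparisons, in this order. On the TPM scale its mean moved from above 45.3% of the genes tested in WT to above 65.7% of them in WT + JSH23.

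The change of Ahr with LPS was small by comparison. In the absence of JSH-23 the log2FC was 0.23 (SE 0.0602, adjusted p = 0.00232) from counts, and it turned to -0.10 (adjusted p = 0.203 with limma) on log2(TPM + 1). On that scale the per-gene difference from the count-based changes had a median of -0.295 over all genes. Relative to the median gene, Ahr was higher in WTL by 0.157 on the log2 TPM scale. With JSH-23 present, the log2FC with LPS was 0.089 (SE 0.0519, 95% confidence interval -0.031 to 0.21, adjusted p = 0.156) from counts and also turned negative on the TPM scale. The libraries of these groups did not overlap, yet without WTL + JSH23 replicate 3 the log2FC was 0.018. The interaction was -0.14 (SE 0.0795) and lost its sign on the TPM scale, where it was 0.00070.

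Arnt, whose protein pairs with AHR and also with the hypoxia factors, varied little (ENSMUSG00000015522.18, chromosome 3, 95434388 to 95497240, plus strand). Its mean was 49.2 ± 1.76 CPM in WT, 52.4 ± 1.43 in WTL, 52.8 ± 1.90 in WT + JSH23 and 51.5 ± 3.17 in WTL + JSH23 (SD, n = 3). Over all 12 libraries it ran from 47.61 to 55.1 CPM, and each group overlapped its neighbours in the order of means. It passed in none of the 4 comparisons with edgeR. Its log2FC with JSH-23 was 0.10 without LPS (95% confidence interval -0.012 to 0.22, adjusted p = 0.108) and -0.022 under LPS (-0.14 to 0.095, adjusted p = 0.754), which turned to 0.14 on log2(TPM + 1). Its log2FC with LPS was 0.091 without JSH-23 (-0.024 to 0.21, adjusted p = 0.115), a comparison in which Arnt passed as higher with DESeq2 and as lower on the TPM scale. With JSH-23 present it was -0.033 (-0.15 to 0.083, adjusted p = 0.608), and the interaction was -0.12 (SE 0.0708) from counts and 0.13 on log2(TPM + 1).

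Ahrr fell with either agent and was lowest with both. The gene (ENSMUSG00000021575.16, chromosome 13, 74211118 to 74292331, minus strand) was at 166.6, 173.3 and 166.9 CPM in WT and at 52.15, 53.76 and 56.95 CPM in WTL. It was at 59.92, 60.63 and 54.49 CPM in WT + JSH23 and at 23.53, 26.54 and 21.74 CPM in WTL + JSH23. WT lay above all other libraries and WTL + JSH23 below them, whereas WTL and WT + JSH23 overlapped. Ahrr was 2.90-fold lower with JSH-23 than without it in unstimulated cells (log2FC -1.53, SE 0.0532, adjusted p = 2.64e-15). Under LPS it was 2.26-fold lower with JSH-23 (log2FC -1.18, SE 0.0628, adjusted p = 1.56e-12). It was 3.12-fold lower with LPS without JSH-23 (log2FC -1.64, SE 0.0542, adjusted p = 1.32e-16) and 2.44-fold with it (log2FC -1.28, SE 0.0618, adjusted p = 1.5e-13). Pairs of these comparisons share libraries, so they are not independent. The interaction was 0.36 (SE 0.0824). By TPM, Ahrr was above 84.2% of the genes tested in WT and above 46.4% in WTL + JSH23.

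Tiparp, also called PARP7, followed LPS more than JSH-23 (ENSMUSG00000034640.9, chromosome 3, 65528410 to 65555518, plus strand). It was at 61.77, 63.85 and 60.37 CPM in WT and at 130.3, 128.4 and 117.7 CPM in WTL. Its mean was 46.8 ± 2.87 CPM in WT + JSH23, with libraries from 43.7 to 49.38, and 103 ± 3.09 CPM in WTL + JSH23, with libraries from 99.99 to 106.2. The 4 groups did not overlap, and both groups with LPS lay above both groups without it. Tiparp was 2.02-fold higher with LPS without JSH-23 (log2FC 1.02, SE 0.0487, adjusted p = 7.55e-14) and 2.20-fold with it (1.14, SE 0.0505, adjusted p = 3.84e-14). It was 1.33-fold lower with JSH-23 without LPS (log2FC -0.41, SE 0.0511, adjusted p = 1.18e-06) and 1.22-fold under LPS (-0.28, SE 0.0478, adjusted p = 3.85e-05). The interaction was 0.12 (SE 0.07). An exon of 4931440P22Rik, a transcribed pseudogene on the opposite strand, overlaps Tiparp. The expected count of 4931440P22Rik was at most 4.55% of that of Tiparp in a library. How many reads of 1 gene were counted for the other is not known. The strand setting of the counting is not given in the sources used here.

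**Figure D1:**
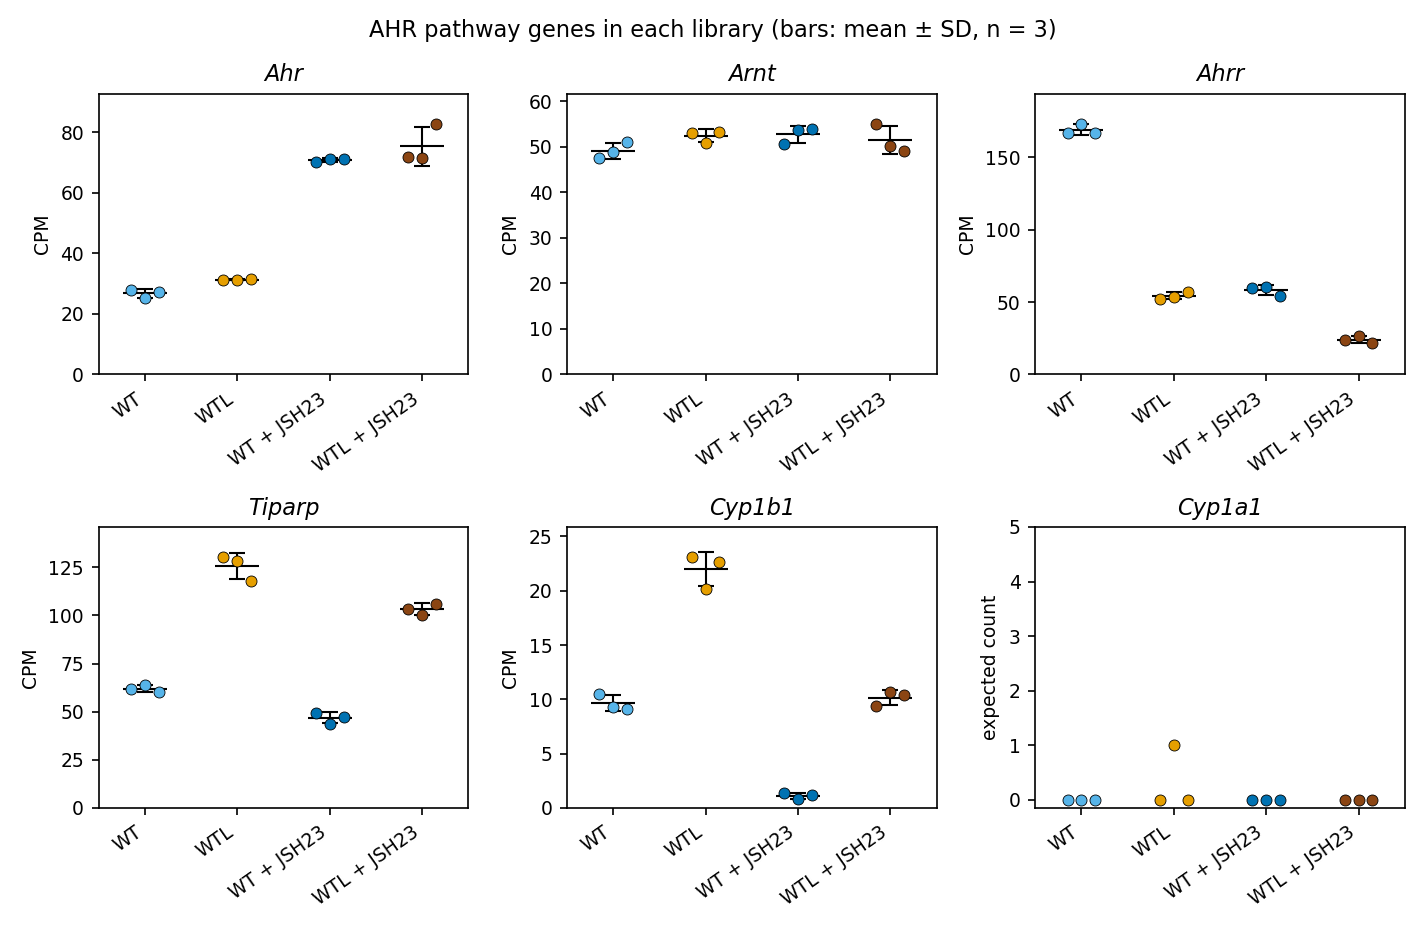
Level of each of the 6 genes in each library (y axes, CPM, and expected counts for Cyp1a1) by group (x axes), with 1 point per library and bars for the mean ± SD of 3 libraries, which are left out for Cyp1a1. Ahr lay at 70.06 CPM or more in all libraries with JSH-23 and at 31.4 or less in the others, Ahrr was highest in WT and lowest in WTL + JSH23, and Cyp1b1 was lowest in WT + JSH23.

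Cyp1b1, which oxidises polycyclic hydrocarbons and oestrogens, was at its lowest in unstimulated cells with JSH-23. The gene (ENSMUSG00000024087.4, chromosome 17, 79701537 to 79715061, minus strand) was at 10.52, 9.332 and 9.141 CPM in WT and at 1.383, 0.832 and 1.191 CPM in WT + JSH23, which came from 45, 23 and 35 counts. It was at 23.09, 20.2 and 22.65 CPM in WTL and at 9.39, 10.7 and 10.41 CPM in WTL + JSH23. The libraries of WTL + JSH23 and WT overlapped, those of WTL lay above them and those of WT + JSH23 below. The mean was 9.66 ± 0.747 CPM in WT, 21.98 ± 1.558 in WTL, 1.14 ± 0.280 in WT + JSH23 and 10.2 ± 0.690 in WTL + JSH23 (SD, n = 3). For the 103 counts of WT + JSH23 pooled, an exact Poisson interval, which covers counting error only, ran from 0.939 to 1.39 CPM.

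As a description, the log2FC of Cyp1b1 with JSH-23 was -3.07 (SE 0.135) without LPS, or 8.39-fold lower, and -1.11 (SE 0.0867) under LPS, or 2.16-fold lower. Ranked from the lowest of all 14357 genes tested, it was at place 15 in the first comparison and at place 415 in the second. With LPS it was 2.27-fold higher in cells without JSH-23 (log2FC 1.18, SE 0.0844) and 8.80-fold higher in cells with it (3.14, SE 0.137). The interaction of 1.96 (SE 0.171), for which the pathway was noticed, ranked at place 56 from the highest. On the TPM scale these values depended on the constant added before the log, as the mean in WT + JSH23 was 0.41 TPM. The interaction was 0.83 on log2(TPM + 1) and 1.82 on log2(TPM + 0.1). The difference with JSH-23 without LPS was -1.66 and -2.81 on these scales.

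Cyp1a1, the most inducible of the classical targets in many tissues (ENSMUSG00000032315.6, chromosome 9, 57687928 to 57703824, plus strand), was barely detected. It had 1 expected count, in WTL replicate 5, and 0 in the other 11 libraries. A count of 0 allows up to 3 counts, or between 0.0854 and 0.138 CPM in a library, counting error only. No difference between groups was detectable at this depth.

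The 4 tested genes were counted against all 14357. With JSH-23 in unstimulated cells 1 was higher (Ahr) and 2 were lower (Ahrr and Tiparp) at an adjusted p under 0.05, where 41.0% of all genes passed, 18.8% higher and 22.1% lower. With JSH-23 under LPS the same 3 genes passed in these directions, where 48.7% of all genes passed, 24.5% higher and 24.2% lower. With LPS alone 2 were higher (Ahr and Tiparp) and 1 was lower (Ahrr), and 65.7% of all genes passed, 31.0% higher and 34.7% lower. With LPS after JSH-23 1 was higher (Tiparp) and 1 was lower (Ahrr), and 54.5% of all genes passed, 27.4% higher and 27.1% lower. The libraries of the compared groups did not overlap for 3 of the 4 genes (all but Arnt) in each comparison, where 51.5%, 54.8%, 69.9% and 59.1% of all genes did not overlap, in this order. A change of more than 2-fold was required as well in a stricter count, which kept 2 of the 4 in each comparison, where 5.37%, 7.00%, 16.4% and 10.3% of all genes passed, in the order above. These were Ahr and Ahrr for JSH-23 and Ahrr and Tiparp for LPS. Tiparp lay close to the limit, and with LPS alone its log2FC was 0.94 with upper quartile scaling, 0.99 without WTL replicate 4, 0.998 without WT replicate 6 and 0.70 on log2(TPM + 1), each of which leaves 1 gene past 2-fold. With LPS after JSH-23 it was 0.93 on log2(TPM + 1).

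**Figure D2:**
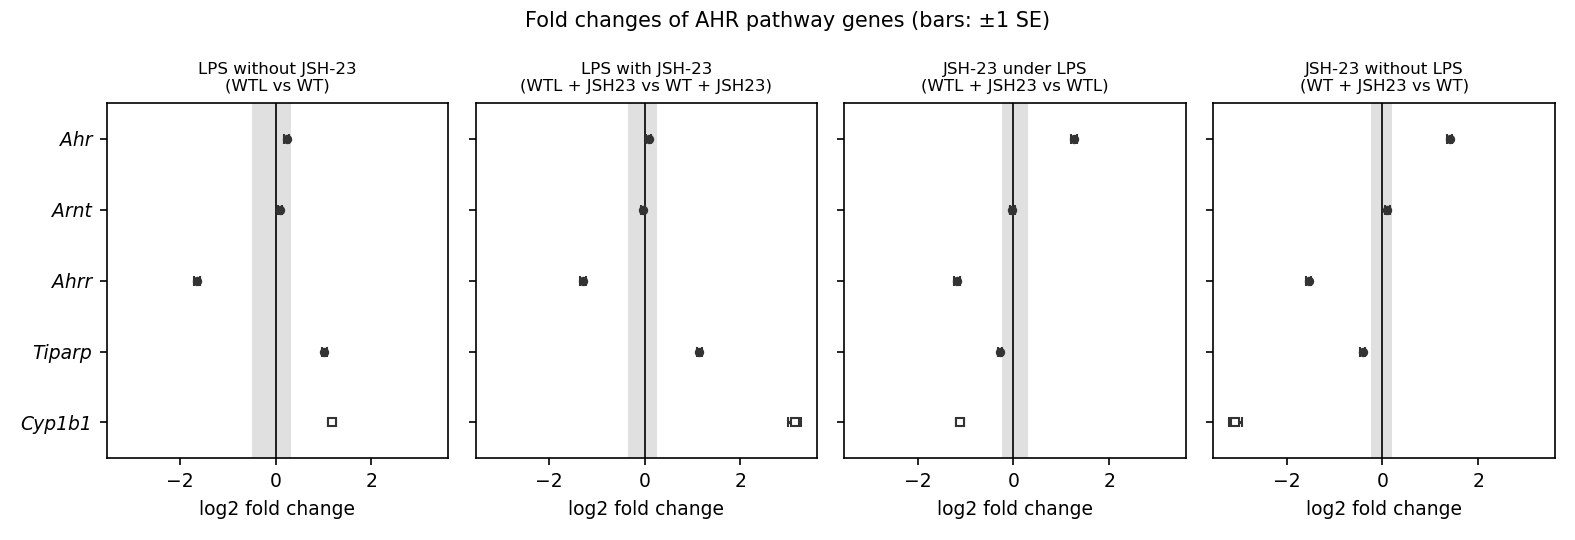
Log2 fold changes of the 5 genes above the low-count filter (x axes) in the 4 comparisons, from edgeR on counts, with bars of 1 SE. Grey bands span the middle of all 14357 genes tested, from the lower to the upper quartile, and open squares mark Cyp1b1, which was not tested. Ahr stands to the right of the band with JSH-23, and Ahrr to the left of it in all 4 comparisons. Tiparp stands to the right with LPS and, by less, to the left with JSH-23, and Arnt lies inside each band. The small LPS changes of Ahr turn negative on the TPM scale.

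The balance of repressor to receptor transcripts was taken as Ahrr TPM over Ahr TPM within each library. It was 6.92, 7.82 and 7.25 in WT and 2.02, 2.01 and 2.44 in WTL. It was 0.985, 0.968 and 0.891 in WT + JSH23 and 0.381, 0.42 and 0.294 in WTL + JSH23. The 4 groups did not overlap, and Ahrr transcripts outnumbered Ahr transcripts in all 6 libraries without JSH-23 and in none of the 6 with it. Mean ratios were 7.33 ± 0.452, 2.16 ± 0.244, 0.948 ± 0.0502 and 0.365 ± 0.0645 (SD, n = 3), in the same order. An exact permutation test of 3 libraries against 3 cannot go below a p of 0.1, so none was used here. The WTL replicate 6 value is raised by a shorter effective length of Ahrr, 3900.72 bases against 4321.71 to 4534.46 in the other libraries. Transcript ratios say nothing of protein.

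**Figure D3:**
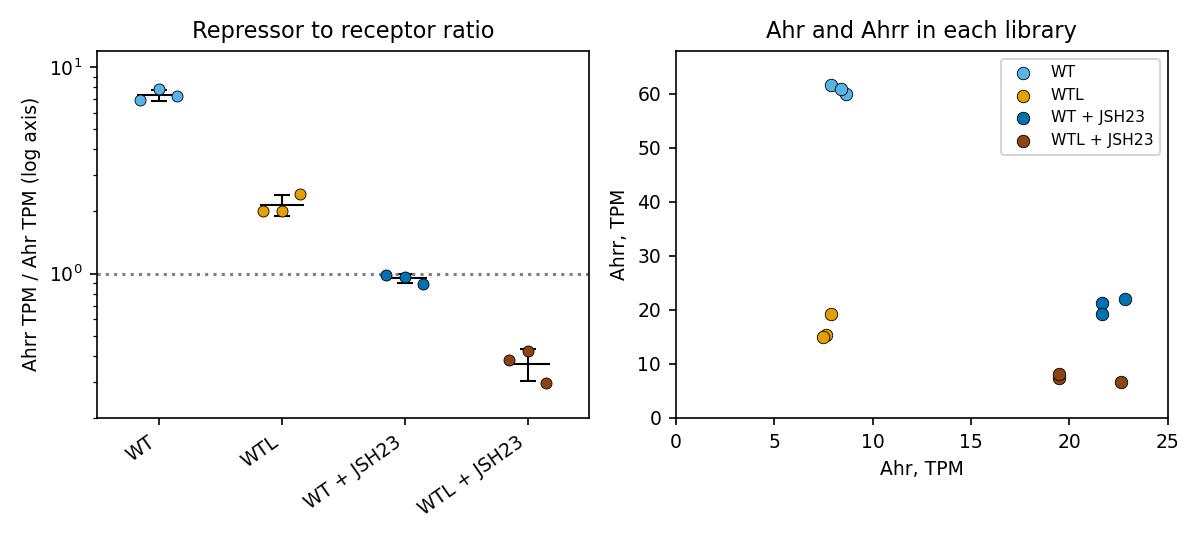
Left, ratio of Ahrr TPM to Ahr TPM (y axis, log scale) in each library by group (x axis), with points for libraries, bars for mean ± SD of 3 and a dotted line at equal levels. Right, Ahrr TPM (y axis) against Ahr TPM (x axis) in each library. The ratio falls from 7.33 in WT to 0.365 in WTL + JSH23, and the JSH-23 libraries lie to the right.

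The wider pathway was followed with 51 genes on 5 lists, of which 38 passed the low-count filter. With JSH-23 in unstimulated cells 12 of the 38 were higher and 16 lower, and 73.7% passed against 41.0% of all genes. With JSH-23 under LPS 11 were higher and 15 lower, and 68.4% passed against 48.7%. With LPS alone 19 were higher and 9 lower, and 73.7% passed against 65.7% of all genes. With LPS after JSH-23 18 were higher and 7 lower, and 65.8% passed against 54.5%. The lists were written with earlier results of these data known, and no test was run on them.

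The tryptophan list, 11 enzymes of tryptophan breakdown whose products include AHR ligands and 1 carrier of kynurenine, was mostly lower with JSH-23. Of its 10 tested genes 7 were lower and 1 higher in unstimulated cells, where 22.1% and 18.8% of all genes were. The median log2FC was -0.66, where the median of all genes was -0.0078. Under LPS 6 were lower and 2 higher, where 24.2% and 24.5% of all genes were. The median was then -0.82, where the median of all genes was 0.020. Il4i1, an oxidase that turns tryptophan into indole-3-pyruvate, was the most abundant and fell with JSH-23 from 1351 ± 48.7 to 772 ± 17.6 CPM without LPS (log2FC -0.81, adjusted p = 3e-13) and from 2385 ± 84.2 to 1182 ± 23.1 CPM under LPS (-1.01, adjusted p = 6.85e-15). Exons of Atf5, Nup62 and Tbc1d17 overlap Il4i1, and its expected count was fractional in 11 libraries. Kynu, which cleaves kynurenine, fell from 138 ± 3.81 to 84.8 ± 0.640 CPM and from 189 ± 0.730 to 96.3 ± 5.98 CPM. Ido2, a dioxygenase that opens the tryptophan ring, fell from 7.37 ± 0.465 to 1.88 ± 0.207 CPM without LPS (log2FC -1.98, adjusted p = 5.62e-11) and from 19.6 ± 1.11 to 4.35 ± 0.832 CPM under LPS (-2.16, adjusted p = 3.35e-13). Its relative Ido1 was low throughout, at 2.21 ± 0.208 CPM in WT and 0.774 ± 0.0631 in WT + JSH23, and its log2FC with JSH-23 was -1.52 (adjusted p = 1.4e-05) without LPS and -2.51 (adjusted p = 3.75e-08) under LPS. The gene that was higher in both comparisons was the carrier Slc7a5, named after its values were seen, whose log2FC was 0.82 in each. With LPS alone, where 31.0% of all genes were higher and 34.7% lower, 5 genes of the list were higher and 3 lower from counts, and 3 were higher and 4 lower on log2(TPM + 1).

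The chaperone list holds the proteins that keep AHR in the cytoplasm and their helpers. Of its 6 genes, all tested, 4 were higher and 1 lower with JSH-23 in unstimulated cells, where 18.8% and 22.1% of all genes were. The median log2FC was 0.25. Under LPS 2 were higher and 1 lower, where 24.5% and 24.2% of all genes were, with a median of 0.037. On log2(TPM + 1) 4 were higher and 0 lower under LPS, with a median of 0.18, where the median of all genes was 0.097. Hsp90aa1, the stress-inducible form of HSP90, rose with JSH-23 from 327 ± 8.15 to 487 ± 22.3 CPM (log2FC 0.58, adjusted p = 2e-10) and under LPS from 459 ± 13.0 to 635 ± 24.5 CPM (0.47, adjusted p = 3.63e-09). Hsp90ab1, the constitutive form, rose from 1273 ± 11.0 to 1666 ± 53.2 CPM and from 1451 ± 16.0 to 1861 ± 67.0 CPM. The counts of Hsp90aa1 were fractional in all 12 libraries. With LPS alone 5 of the 6 genes were higher and none lower from counts, where 31.0% of all genes were higher and 34.7% lower. On log2(TPM + 1) 3 were higher and 2 lower (Hsp90ab1 and Cdc37, the latter named after its values were seen).

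Among the bHLH-PAS relatives, which share ARNT or its fold, 9 of 12 were tested. With JSH-23 4 were higher in each setting, and 2 were lower without LPS and 1 under LPS, with medians of 0.23 and 0.20. Of all genes 18.8% were higher and 22.1% lower without LPS, and 24.5% were higher and 24.2% lower under LPS. Hif1a, which pairs with ARNT in hypoxia, was the most abundant and rose from 336 ± 9.97 to 418 ± 16.5 CPM without LPS and from 673 ± 32.9 to 771 ± 23.9 CPM under LPS. It shares exons with a predicted protein-coding gene and an antisense gene, and its counts were fractional in each library. Clock, a circadian regulator, had log2FC values with JSH-23 of 0.025 (adjusted p = 0.734) without LPS and -0.0011 (adjusted p = 0.987) under LPS. Arnt2, the close relative of Arnt, was low, at 1.16 ± 0.361 CPM in WT and 2.67 ± 0.536 in WT + JSH23, and rose with JSH-23 (log2FC 1.23, adjusted p = 7.42e-05). The circadian relative Npas2 fell from 1.29 ± 0.160 to 0.631 ± 0.109 CPM (log2FC -1.01, adjusted p = 0.00123). The calls of Arnt2 and Npas2 were lost on log2(TPM + 0.1).

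Of 9 phase I and II enzymes that AHR controls in liver 5 were tested, and Cyp1a2, the closest relative of Cyp1a1, had at most 1 count in a library. With JSH-23 2 were higher and 1 lower without LPS, where 18.8% and 22.1% of all genes were. Under LPS 1 was higher and 1 lower, where 24.5% and 24.2% of all genes were. The medians were 0.38 and 0.24. Nqo1, a quinone reductase that NRF2 also controls, rose with JSH-23 from 58.1 ± 2.55 to 81.9 ± 3.32 CPM without LPS (log2FC 0.50, adjusted p = 2e-08) and from 57.1 ± 2.08 to 81.0 ± 3.42 CPM under LPS (0.51, adjusted p = 1.71e-08). Xdh, which makes urate, fell from 241 ± 6.51 to 181 ± 8.93 CPM and from 165 ± 2.67 to 136 ± 11.4 CPM, the latter a call that was lost on the TPM scale. The other gene that passed, chosen after its values were seen, was Ugt1a6a, which shares exons with the other Ugt1a genes. Its log2FC with JSH-23 was 0.37 (adjusted p = 0.021) without LPS and 0.24 (adjusted p = 0.191) under LPS. The call without LPS was lost when WT replicate 5, WT replicate 6 or WT + JSH23 replicate 3 was left out.

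The list of other genes described as AHR targets was mostly lower with JSH-23. Of 8 tested genes 5 were lower and 1 higher without LPS, where 22.1% and 18.8% of all genes were. The median was -0.43, and that of all genes -0.0078. Under LPS 6 were lower and 2 higher, where 24.2% and 24.5% of all genes were. The median was then -0.56, and that of all genes 0.020. Serpinb2, an inhibitor of plasminogen activators, fell from 24.99 ± 1.997 to 8.60 ± 0.718 CPM without LPS (log2FC -1.54, adjusted p = 3.91e-11) and from 287 ± 24.2 to 43.5 ± 4.998 CPM under LPS (-2.72, adjusted p = 6.97e-17). Nfe2l2, which encodes the antioxidant regulator NRF2, fell from 622 ± 25.9 to 443 ± 9.65 CPM and from 697 ± 6.21 to 469.5 ± 22.02 CPM. Socs2, a brake on cytokine signalling, fell from 207 ± 2.83 to 140 ± 1.81 CPM and from 258 ± 4.35 to 181 ± 4.74 CPM. Lpcat2, which makes lipid mediators, had a log2FC of -0.73 (adjusted p = 8.79e-10) without LPS and -0.82 (adjusted p = 1.21e-10) under LPS. The gene that was higher in both, Entpd1, named after its values were seen, had log2FC values of 0.27 and 0.28. Il22, a classical AHR target of lymphocytes, was at 0 in all libraries.

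**Figure D4:**
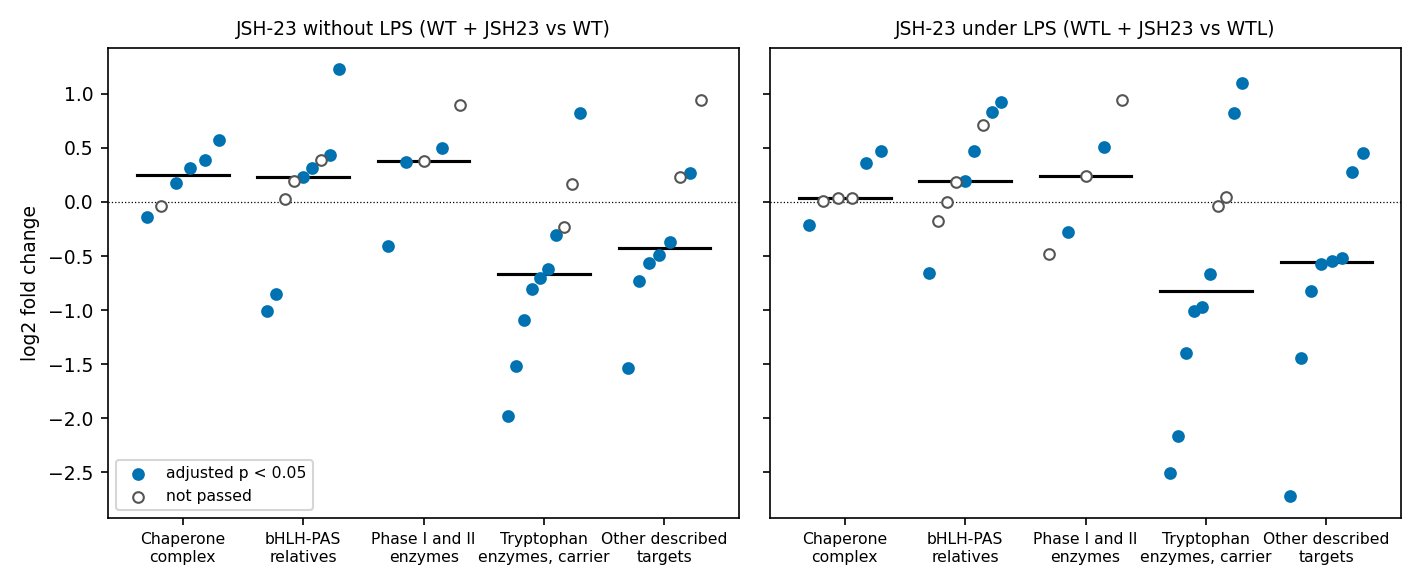
Log2 fold change with JSH-23 (y axis) of each tested gene of the 5 lists (x axis), without LPS on the left and under LPS on the right. Filled points passed an adjusted p under 0.05, open points did not, and bars are medians. The tryptophan list has the lowest median in both panels, -0.66 and -0.82, followed by the other described targets.

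The genes whose pattern was most like that of a pathway gene were found by Pearson r of log2(CPM + 0.5) over the 12 libraries among 9453 protein-coding genes. The libraries fall into 4 groups that all genes share, and the values are given as a description. The 5 most like Ahr were Ahnak2 (r = 0.997), Uchl1, Hmox1, Homer3 and Atf1 (r = 0.991). Hmox1, the haem oxygenase, had group means of 782.9 CPM in WT, 820.8 in WTL, 2638 in WT + JSH23 and 2935 in WTL + JSH23. The 5 most like Tiparp were Irf1 (r = 0.995), Dyrk2, Il12a, Ifi205 and Gpr85 (r = 0.993). Irf1, an interferon-response regulator, had means of 272.7, 694.7, 175.1 and 567.5 CPM in the same order. The 5 most like Cyp1b1 were Igsf6 (r = 0.985), Rasgrp1, Tbc1d2b, Galnt10 and Plekho2 (r = 0.973). Igsf6 had means of 291.8, 363.1, 151.9 and 263.9 CPM, a narrower range than that of Cyp1b1.

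Markers of other cell types that could be present were summed in each library. The sum of 7 fibroblast and stroma markers ran in the order of the group means of Cyp1b1, whose WT and WTL + JSH23 libraries overlapped. It was at 1.668 to 2.09 CPM in WT + JSH23, 2.475 to 3.312 in WT, 11.93 to 14.52 in WTL + JSH23 and 32.12 to 32.78 in WTL. This sum consisted mainly of Pdgfrb and Pdgfra, the list's 2 genes above the low-count filter, while Col3a1 was at 0 in all libraries and Col1a1 had at most 4 counts. The mean of Pdgfra went against this order, at 0.233 CPM in WT and 0.499 in WT + JSH23. The sum of 4 endothelial markers, nearly all of it Kdr, was 69.42 to 72.92 CPM in WT, 108 to 114.3 in WTL and between 19.96 and 26.95 in the JSH-23 groups. The mean of Cdh5 was higher with JSH-23, while the means of the other endothelial markers were lower. It was at 0.519 CPM in WT, 0.951 in WT + JSH23, 0.531 in WTL and 1.33 in WTL + JSH23. The sum of 10 macrophage markers, with Csf1r and Cd14 the most abundant, was 2772 to 2943 CPM in WT, 3241 to 3322 in WTL, 2174 to 2199 in WT + JSH23 and 2583 to 2692 in WTL + JSH23. The part of these cells or markers in the levels of Cyp1b1 and Ahrr was not tested. The sum of 10 dendritic cell markers, led by Cd74 and H2-Aa, ran from 13400 to 18150 CPM over all libraries, and the sum of 9 neutrophil markers, led by S100a9 and S100a8, from 41.56 to 63 CPM. The sums of 5 B cell markers and of 5 T and NK cell markers stayed below 1 CPM in each library, with no gene of either list above the low-count filter. The 6 mast cell and basophil markers summed to between 3.778 and 8.213 CPM, nearly all of it Kit, and Mcpt4 was at 0 in all libraries.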

How the data were processed

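Bulk RNA-seq of 12 BMDC libraries was used, with groups and replicate numbers from the sample titles. The authors trimmed the read pairs (Trim Galore), mapped them to mm10 with STAR (2.6.0c per the labels) and ran RSEM over a GENCODE annotation. The deposited expected counts give the read pairs of each gene without filter or normalization, pairs with several matches being shared out by RSEM. The deposited TPM values were computed by the authors from these counts and effective lengths. The labels name rRNA depletion and the methods of the study poly(A) selection, and which was used was not settled here. Symbols and positions came from GENCODE M21 on the same build, which held 55154 of the 55335 gene identifiers.

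Counts were rounded before testing. With edgeR 4.0.16 (R 4.3.3), filterByExpr left 14357 genes with 99.94% to 99.95% of the counts. TMM factors (trimmed mean of M values) ran from 0.859 in WTL to 1.12 in WT + JSH23. The quasi-likelihood F-test had 1 mean per group, all 12 libraries and 8 residual degrees of freedom, and Benjamini-Hochberg adjustment covered all genes tested. Adjusted p values of genes are from this two-sided test unless another tool is named, and a gene is called higher or lower at an adjusted p under 0.05. SE is the absolute log2 fold change divided by the square root of F. The 95% confidence intervals used this SE and a t distribution with 8 degrees of freedom. The F-test also borrows information on spread from other genes, so the intervals are wider than the p values imply. The code was tested on simulated data with known changes. Alternatives were RLE and upper quartile scaling, DESeq2 1.42.0, other low-count filters, limma 3.58.1 on log2(TPM + 1) and log2(TPM + 0.1), a replicate block, fits of only the compared groups and leaving out each library. The genes and lists were chosen with earlier results of these data known. Named besides the 6 genes were, per list, the 2 most abundant genes and the 2 with the largest change with JSH-23 without LPS among those that passed, the 5 genes most like Ahr, Tiparp and Cyp1b1 among those whose highest group mean reached 5 CPM, and the leading and absent markers. Other genes are marked as named after their values were seen, or are named only as overlapping genes.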

Additional observations from a re-analysis of the deposited data

How the results depend on the processing

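All alternatives kept the direction and the call of Ahrr and Tiparp in the 4 comparisons and of Ahr with JSH-23. On the TPM scale the LPS change of Ahr turned, without JSH-23 to -0.10 with log2(TPM + 1) and -0.11 with log2(TPM + 0.1), and with JSH-23 to -0.10 and -0.11, none of them passing. The LPS change of Arnt without JSH-23 turned to -0.28 (adjusted p = 0.00341 with limma) and -0.29, and passed as higher with RLE factors (0.13), with DESeq2 (0.13) and with only the compared groups (0.10). With only the compared groups Arnt also passed for JSH-23 without LPS (0.12). Under LPS its JSH-23 change turned to 0.14 on both TPM scales and to 0.011 without WTL + JSH23 replicate 3, and leaving out each library gave -0.070 to 0.011. The interaction turned to 0.00070 and 0.0076 for Ahr and to 0.13 on both TPM scales for Arnt, and moved to 0.23 and 0.24 for Tiparp. On these scales, in the same order, Cyp1b1 moved to 0.73 and 0.86 with LPS, to 1.56 and 2.69 with LPS after JSH-23 and to -1.66 and -2.81 with JSH-23 alone, and with log2(TPM + 1) to -0.82 with JSH-23 under LPS and to 0.83 for the interaction. Leaving out each library gave Cyp1b1 ranges of 2.97 to 3.31 with LPS after JSH-23, -3.24 to -2.90 with JSH-23 alone and 1.79 to 2.13 for the interaction. In the comparisons of Cyp1b1 that use WT + JSH23, where its mean was 0.41 TPM, the constant added before the log shrinks the log2 differences. The cause of the other shifts was not tested beyond the shift of all genes on the TPM scale. The alternatives applied to the pathway lists were added after the data were seen, and the tryptophan list kept between 5 and 7 lower genes with JSH-23 without LPS and between 5 and 6 under LPS. The lists' LPS medians depended on the scale, and that of the bHLH-PAS list changed sign. The median of the chaperone list with JSH-23 under LPS depended on the scale too.

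Replicate numbers do not pair the samples by the labels. Deviations of same-numbered libraries had r between 0.00837 and 0.115 over 6 pairs, and pairs with different numbers between -0.0891 and 0.0631. These ranges overlap, and 10 of 12 libraries were closest to their own number. With the replicate block, the LPS change of Ahr without JSH-23 was 0.23 (adjusted p = 0.00127), no call of the 4 tested genes changed, Kmo of the tryptophan list was no longer lower with LPS after JSH-23, and the calls over all genes went from 9437 to 9539 with LPS and from 7828 to 7960 with LPS after JSH-23. No block could be fitted for the JSH-23 comparisons, whose groups share no number. Depth limits Cyp1a1 and, in WT + JSH23, Cyp1b1.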
